A study of Mus musculus with 4 samples.

Results

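GATA4 is a zinc-finger transcription factor that binds DNA at GATA sequences and is needed for the formation and growth of heart muscle. Acetylation of lysine 27 on histone H3 (H3K27ac) is placed on nucleosomes at promoters and enhancers in use. A broad run of the mark often spans several enhancers or a promoter with its surroundings, while a short interval covers few nucleosomes. The regions described here are GATA4 peaks that lay on such short intervals: peaks that overlapped H3K27ac by 1 bp or more, where every H3K27ac interval overlapped was narrower than 2000 bp, and that overlapped no peak of TCF7L2, a DNA-binding partner of beta-catenin in Wnt signalling. Of 10530 GATA4 peaks, 718 met this rule, 6.82% (95% Wilson interval 6.35 to 7.32). They lay on 695 H3K27ac intervals and are called narrow-interval peaks below.

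The peaks come from chromatin immunoprecipitation and sequencing of ventricles of wild-type C57BL/6 mice at postnatal day 6, with 10 hearts pooled for each precipitation and no treatment given in the labels. GATA4, TCF7L2 and H3K27ac each had 2 biological replicates but 1 peak list, so no value has a replicate error. Whole ventricles hold several cell types, so an interval acetylated in few cells and one weakly acetylated in many cannot be told apart. The lists give positions only, read depth is unknown, and positions are 1-based in mm9. The set used for comparison was the 7383 GATA4 peaks without TCF7L2 that overlapped an H3K27ac interval of 2000 bp or more, called broad-interval peaks. The 24 GATA4 peaks that lay on narrow intervals and also overlapped TCF7L2 were left out. The peaks were chosen by their overlap with H3K27ac, by H3K27ac width and by lack of TCF7L2, so intervals, gaps, positions within an interval and distances to TCF7L2 are given as description, without a test. Tests were made of GATA4 peak width, GATA4 spacing and chromosome.

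Narrow acetylated intervals were common but seldom held GATA4. Of 75011 H3K27ac intervals, 45818 were narrower than 2000 bp, 61.1%, and 695 of these carried a narrow-interval peak, 1.52% (1.41 to 1.63). The share of intervals with any GATA4 peak climbed with width: 0.452% below 0.5 kb, 1.11% from 0.5 to 1 kb, 3.04% from 1 to 1.5 kb and 4.62% from 1.5 to 2 kb. In broader classes it was 11.1% from 2 to 5 kb, 21.5% from 5 to 10 kb and 44.7% from 10 kb. A wider interval offers more room, so GATA4 peaks without TCF7L2 were also counted per acetylated length. Per Mb of H3K27ac, there were 14.1 such peaks in intervals below 0.5 kb and 15.4 in the next class, then 24.8 and 27.1. The classes from 2 kb held 35.5, 33.1 and 34.6. Density per Mb was therefore nearly level above 2 kb and lower in each class of narrow intervals. Peaks that crossed a border were counted in full, which adds most to the density of short intervals. Below 0.5 kb, 29.6% of the peaks lay wholly inside, against 98.3% from 2 to 5 kb.

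**Figure D1:**
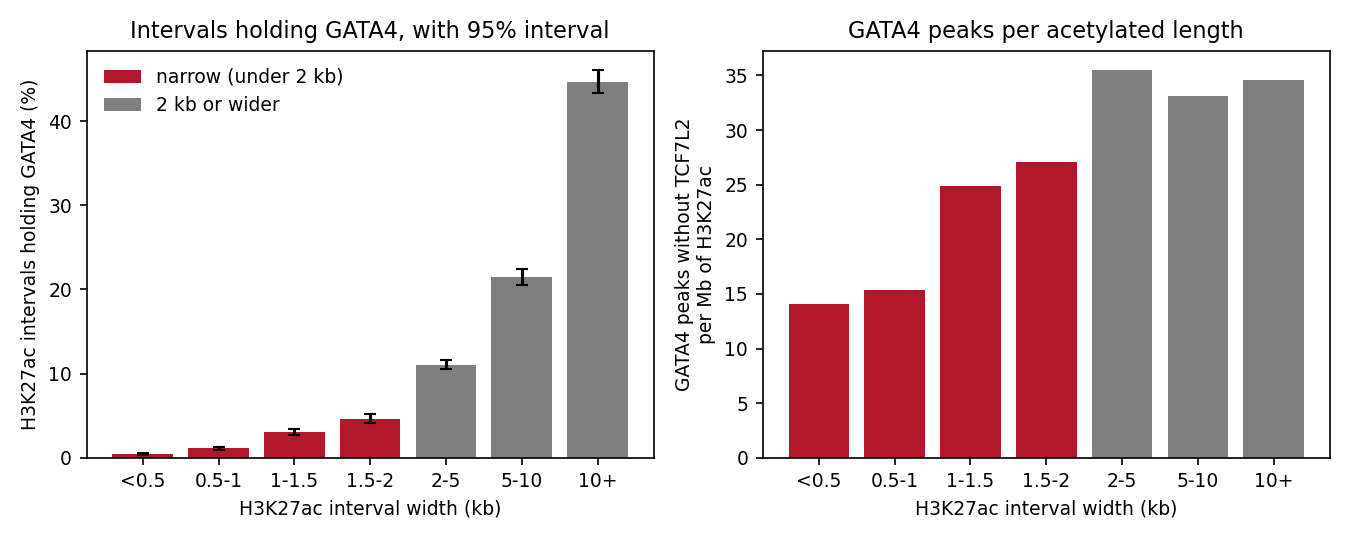
Left, share of H3K27ac intervals of each width class (kb) that held a GATA4 peak, with 95% Wilson intervals. Right, GATA4 peaks without TCF7L2 per Mb of H3K27ac in the same classes, which was 14.1 in the narrowest class and 34.6 in the widest.

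The 718 peaks were themselves found mostly on the wider of the narrow intervals. Intervals below 0.5 kb carried 81 of them, those of 0.5 to 1 kb carried 148, those of 1 to 1.5 kb carried 234, and those of 1.5 to 2 kb carried 255. The median width of the 695 carrying intervals was 1294 bp (quartiles 839.5 and 1658 bp), against 584 bp (330 and 1070 bp) for the 45099 narrow intervals without GATA4. At the limit, the widest carrying intervals were 1 bp under it (GATA4 at chr10:7512473-7512682), of 1998 bp (chrX:160857491-160857801) and of 1996 bp (chr1:95931767-95931939). Just outside it lay GATA4 peaks on intervals of 2002 bp (chr10:95511275-95511466 and chr11:115425302-115425651) and 2004 bp (chr6:111676157-111676290). The GATA4 peaks themselves spanned 173 to 311 bp inside the limit and 134 to 350 bp outside it.

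The carrying intervals lay farther from other acetylated chromatin than narrow intervals without GATA4 did. Their median gap to the nearest other H3K27ac interval was 9.90 kb (quartiles 2.56 and 27.7 kb). For narrow intervals without GATA4 it was 1.14 kb (0.655 and 4.50 kb), and for intervals of 2000 bp or more with GATA4 it was 1.12 kb (0.643 and 4.88 kb). Another H3K27ac interval lay within 1 kb of 112 of the 695, 16.1% (13.6 to 19.03), compared with 45.9% (45.5 to 46.4) of narrow intervals without GATA4. The difference was also present among intervals of like width. In the 4 width classes from narrowest to widest, the median gap was 11.0, 9.54, 11.7 and 8.88 kb for carrying intervals and 1.08, 1.09, 1.28 and 1.55 kb for those without GATA4. In each class the carrying intervals thus lay farther from their neighbours.

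**Figure D2:**
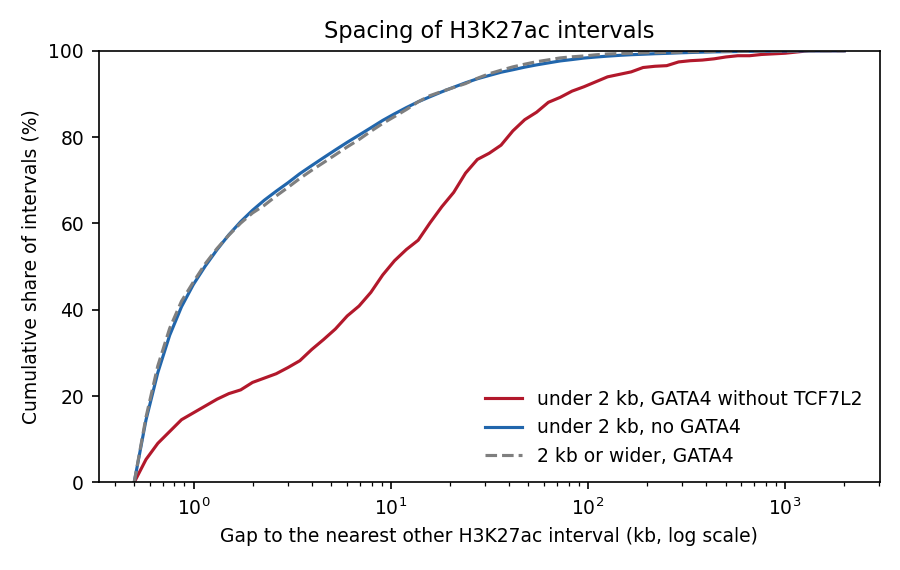
Cumulative share of H3K27ac intervals by the gap to the nearest other H3K27ac interval (kb, log scale). The curve for narrow intervals with a GATA4 peak lies to the right, with a median of 9.90 kb, while narrow intervals without GATA4 and wide ones with GATA4 nearly coincide at 1.14 and 1.12 kb. The wide ones are pooled over all widths of 2000 bp or more.

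The surroundings were poor in acetylation over a longer range as well. In the 50 kb on each side of a carrying interval, the median share of sequence covered by H3K27ac was 6.11% (quartiles 1.30 and 17.8%), against 22.5% (9.29 and 40.6%) around narrow intervals without GATA4 and 25.3% (10.8 and 43.4%) around broad intervals with GATA4. No H3K27ac at all was called in those flanks for 107 of the 695, 15.4% (12.9 to 18.3), compared with 3.64% (3.47 to 3.82) of narrow intervals without GATA4. The nearest interval of 2000 bp or more was a median of 25.6 kb away, against 5.19 kb. Few carrying intervals were thus satellites of a broad one: 27 of the 695, 3.88% (2.68 to 5.59), had as nearest neighbour an interval of 2000 bp or more within 1 kb, which held for 19.1% (18.7 to 19.5) of narrow intervals without GATA4. When H3K27ac intervals were joined across gaps of up to 1 kb before the width limit was applied, 621 of the 718 peaks still met the rule.

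The most isolated peak spanned 128 bp at chr8:99739067-99739194 on an H3K27ac interval of 303 bp. The next acetylated interval lay 1299 kb away and the next GATA4 peak 1260 kb away. Second came 157 bp of GATA4 at chr6:69466367-69466523, 1194 kb from other acetylation, and by one of 349 bp at chr1:103187118-103187466, 1058 kb from it. A peak of 125 bp at chr3:47287882-47288006 lay 1034 kb from other H3K27ac and one of 145 bp at chr10:113357237-113357381 lay 991 kb from it. These 5 were chosen as the farthest from other H3K27ac, so by construction none had any in the 50 kb on each side of its interval. The nearest other GATA4 peak was at least 416 kb away from each.

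Within the acetylated interval, GATA4 midpoints were most frequent towards the centre, and a part of them lay at or past the border. The midpoint of a narrow-interval peak was a median of 235.5 bp from the centre of its H3K27ac interval (quartiles 109 and 417 bp), and 376 of 718, 52.4% (48.7 to 55.999), were within 250 bp. Divided by the distance from centre to border, the median was 0.449, against 0.367 for broad-interval peaks, and 408 midpoints, 56.8% (53.2 to 60.4), were nearer the centre than the border, against 66.003% (64.9 to 67.1). An interval under 2000 bp keeps every distance in bp short by construction. Most narrow-interval peaks, 550 of 718 or 76.6% (73.4 to 79.6), lay wholly inside the interval. The other 168 crossed a border, with a median of 53.4% of the GATA4 peak covered, and in 74 cases (10.3%, 8.29 to 12.7) the GATA4 midpoint itself was outside. Of broad-interval peaks, 99.3% (99.05 to 99.4) were wholly inside and 0.393% (0.274 to 0.564) had the midpoint outside. A border is more easily crossed in a short interval by construction. By width class, the share wholly inside was 29.6% below 0.5 kb, 66.2% from 0.5 to 1 kb, 86.3% from 1 to 1.5 kb and 88.6% from 1.5 to 2 kb. The median relative distance from the centre was 0.640, 0.538, 0.457 and 0.358 in the same classes, while the broader classes had 0.299 from 2 to 5 kb, 0.317 from 5 to 10 kb and 0.438 from 10 kb.

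**Figure D3:**
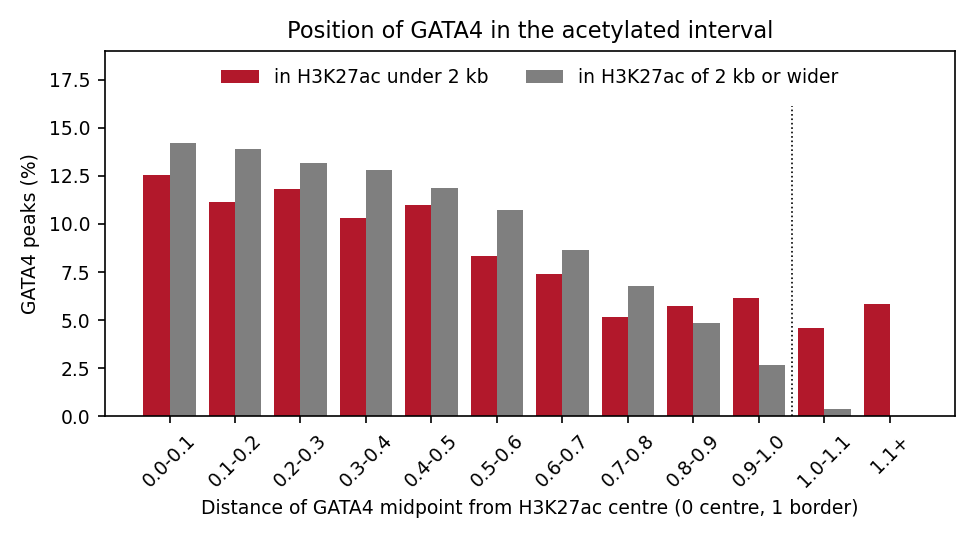
Distance of the GATA4 midpoint from the centre of its H3K27ac interval, divided by the distance from centre to border, as a share of the 718 narrow-interval and 7383 broad-interval peaks. Bars right of the dotted line are midpoints outside the interval, 10.3% of the narrow-interval peaks and 0.393% of the others.

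The 5 narrowest intervals had about the length of a GATA4 peak. On chr10:113357237-113357381 a GATA4 peak of 145 bp overlapped an H3K27ac interval of 125 bp, with 63.4% of the peak covered. A peak of 146 bp at chr13:14677393-14677538 met an interval of 136 bp (79.5% covered), and one of 125 bp at chr5:139517097-139517221 met an interval of 146 bp (88.8% covered). The other 2 of the 5 narrowest, both on chromosome 18, had intervals of 125 and 143 bp with GATA4 peaks of 261 and 203 bp that covered the whole interval, which was the case for 3 of the 718. All 5 GATA4 peaks crossed a border of their interval.

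The width of the GATA4 peak was not part of the rule and was compared between the sets. Narrow-interval peaks had a median width of 178 bp (quartiles 137 and 239 bp), against 196 bp (146 and 272 bp) for broad-interval peaks and 152 bp (125 and 199 bp) for the 2114 GATA4 peaks outside H3K27ac without TCF7L2. Widths at or above 184 bp, the median of the whole list, were found in 345 of 718 narrow-interval peaks, 48.1% (44.4 to 51.7), and in 4073 of 7383 broad-interval peaks, 55.2% (54.03 to 56.3). By a two-sided Fisher's exact test the odds of reaching that width were 0.752 times as high (0.643 to 0.879, p = 0.000300, and 0.000300 after adjustment over 3 tests). The median was below that of broad-interval peaks on 16 of 19 autosomes. Wide GATA4 peaks were fewer too: 144 narrow-interval peaks, 20.06%, and 2150 broad-interval peaks, 29.1%, reached the upper quartile of 256 bp, an odds ratio of 0.611 (0.502 to 0.740, Fisher's exact p = 1.39e-07). Against broad intervals of 2 to 5 kb alone, tried only once the values were known, the odds ratio at 184 bp was 0.799 (0.669 to 0.952, Fisher's exact p = 0.01075). Medians by H3K27ac width class were 168, 174, 172.5 and 190 bp within the limit and 190, 195 and 198 bp beyond it, so the classes on either side of 2 kb had the same median. The share at or above 184 bp was 44.4, 46.6, 44.0 and 53.7% within the limit and 53.7, 55.0 and 56.0% beyond it.

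All p-values here refer to peak positions within 1 list, not to replicates, and neighbouring peaks are not independent of each other.

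The 3 widest narrow-interval peaks each ran over a border. The widest, 980 bp at chr9:14839648-14840627, had 25.5% of its length on an H3K27ac interval of 1394 bp. A peak of 956 bp at chr10:3866342-3867297 had 11.1% on an interval of 441 bp, and one of 708 bp at chr4:136609300-136610007 had 52.3% on an interval of 1160 bp. The next 7 all lay wholly inside acetylation. They spanned 583 bp at chr3:95392432-95393014, 544 bp at chr13:8884667-8885210 and at chr2:51802544-51803087, and 527 bp at chr14:101009322-101009848. The remaining peaks were of 514 bp at chr4:132323885-132324398, 512 bp at chr4:119185249-119185760 and 498 bp at chr2:76124383-76124880.

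With all neighbours counted, narrow-interval peaks had fewer close GATA4 neighbours than broad-interval peaks. By construction, a wide interval has room for such neighbours inside it, so this order is not free of the width rule. The median distance to the next GATA4 midpoint was 71.8 kb (quartiles 26.6 and 167 kb), against 21.4 kb (4.36 and 64.5 kb) for broad-interval peaks. A GATA4 neighbour within 10 kb was found for 92 of 718, 12.8% (10.6 to 15.5), and for 2680 of 7383, 36.3% (35.2 to 37.4), with an odds ratio of 0.258 (0.204 to 0.323) and a two-sided Fisher's exact p of 4.79e-42 (1.44e-41 after adjustment). The share was lower for narrow-interval peaks on 19 of 19 autosomes. On X the order was the opposite, 11.1% of 18 narrow-interval peaks against 5% of 40 broad-interval peaks. These shares rest on very few peaks, and the interval chrX:20537791-20539727 alone held 2 narrow-interval peaks, 0.3185 kb apart. GATA4 peaks outside H3K27ac had a share close to that of the narrow-interval peaks, 300 of 2114 or 14.2% (12.8 to 15.7), with a median distance of 130 kb. Against broad intervals of 2 to 5 kb alone, tried only once the values were known, the ratio was 0.627 (0.484 to 0.807, Fisher's exact p = 0.000191). Taking 1 GATA4 peak per H3K27ac interval gave 0.408 (0.311 to 0.528, Fisher's exact p = 4.58e-14). For the peaks kept there, neighbours in the same interval still counted, so this setting does not remove crowding within an interval. When neighbours inside the same H3K27ac interval were left out, the order of the sets at 10 kb was the opposite, with 48 narrow-interval peaks, 6.69%, and 357 broad-interval peaks, 4.84% (odds ratio 1.41, 1.01 to 1.93, Fisher's exact p = 0.0385). That setting removes search room according to H3K27ac width, the measure that defines the sets. Of the broad-interval peaks, 3747 lay in intervals of 10 kb or more. How much of the sequence searched was removed was not computed, and its part in the opposite order was not tested. Against the shorter broad intervals of 2 to 5 kb, the shares were 6.69% and 8.68% (odds ratio 0.753, 0.527 to 1.06, Fisher's exact p = 0.107). That comparison too was tried only once the values were known.

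Within 50 kb, 284 narrow-interval peaks, 39.6% (36.04 to 43.2), had another GATA4 peak, against 69.2% (68.1 to 70.2) of broad-interval peaks and 30.7% (28.7 to 32.7) of those outside H3K27ac. With the same interval left out, the first of these shares was 35.7% and the second 48.6%. The nearest GATA4 peak of a narrow-interval peak was a broad-interval one in 398 of 718 cases, 55.4% (51.8 to 59.03), compared with 84.9% (84.05 to 85.7) for broad-interval peaks. It lay outside H3K27ac in 185 cases, 25.8% (22.7 to 29.1), against 7.64% (7.06 to 8.27), and was itself a narrow-interval peak in 116, 16.2% (13.6 to 19.03), against 4.54% (4.09 to 5.04). In the other 19 cases it overlapped TCF7L2. Narrow-interval peaks were thus next to a broad-interval peak in a smaller share of cases than broad-interval peaks were, a difference that was not tested. Of all 10530 GATA4 peaks, 7383 were broad-interval and 718 narrow-interval peaks. A wide interval has room for several broad-interval peaks, so part of the difference follows from the rule by construction.

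**Figure D4:**
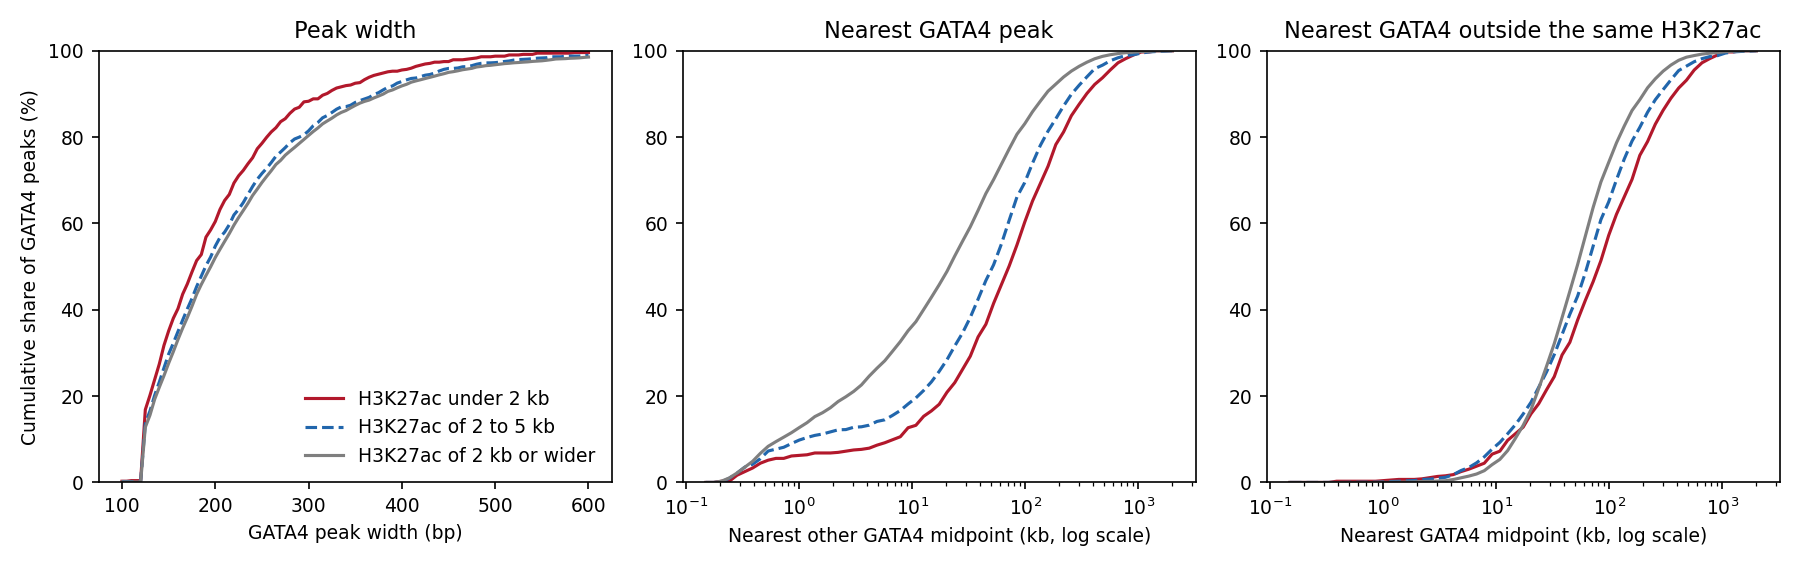
Cumulative shares of GATA4 peaks by peak width (bp), by distance to the nearest other GATA4 midpoint, and by distance to the nearest one outside the same H3K27ac interval (kb, log scale). Curves show narrow-interval peaks, broad-interval peaks, and those in intervals of 2 to 5 kb. The gap between the sets at 10 kb in the middle panel, 12.8% against 36.3%, is 6.69% against 4.84% in the right panel. By construction, wide intervals have room for neighbours in the middle panel and leave less room for them in the right panel.

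Nearly all narrow-interval peaks were alone on their interval. The interval held no second GATA4 peak for 674 of 718, 93.9% (91.9 to 95.4), compared with 60.5% (59.4 to 61.7) of broad-interval peaks, a difference that the room in a wide interval gives by construction. There were 20 intervals with 2 narrow-interval peaks each, and 1 with 4. That interval, chr2:51801821-51803515 with 1695 bp, carried peaks of 151, 244, 544 and 202 bp, each 0.364 to 0.546 kb from the nearest of the others between midpoints. It was 6.11 kb from the next acetylated interval, with H3K27ac over 9.27% of the 50 kb on each side. Of the intervals with 2 peaks, the widest was chr1:95930906-95932901 with 1996 bp, where peaks of 173 and 230 bp lay 0.257 kb apart. Next were chrX:20537791-20539727 (1937 bp, peaks of 362 and 125 bp), chr16:17909602-17911523 (1922 bp, 125 and 259 bp) and chr4:116298905-116300744 (1840 bp, 151 and 143 bp). In the last the peaks stood 1.24 kb apart, farther than in the other 4.

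TCF7L2 was farther from narrow-interval peaks than from broad-interval peaks, and farther still from GATA4 peaks outside H3K27ac. The nearest TCF7L2 midpoint was a median of 1355 kb from a narrow-interval peak, 630 kb from a broad-interval peak and 1673 kb from a GATA4 peak outside H3K27ac. It lay within 10 kb of 6 narrow-interval peaks, 0.836% (0.384 to 1.81), against 203 or 2.75% (2.40 to 3.15) of broad-interval peaks and 0.568% (0.325 to 0.990) of those outside, and within 100 kb of 50, 6.96% (5.32 to 9.06), against 1184 or 16.04% (15.2 to 16.9) and 4.45% (3.65 to 5.41). The H3K27ac interval held a TCF7L2 peak elsewhere in it for 2 narrow-interval peaks and for 313 broad-interval peaks, 4.24% (3.803 to 4.72).

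By chromosome, the autosomes carried from 0.209 narrow-interval peaks per Mb on chromosome 15 to 0.431 on chromosome 2, with a median of 0.288. The X chromosome had 0.110 per Mb, below every autosome. As a share of all acetylated GATA4 peaks without TCF7L2 the order was the opposite: 18 of 58 on X were narrow-interval peaks, 31.03% (20.6 to 43.8), against 700 of 8043 on autosomes, 8.70% (8.11 to 9.34), and from 4.43% on chromosome 11 to 12.6% on chromosome 2. Seen from the sets, 2.51% (1.59 to 3.93) of narrow-interval peaks and 0.542% (0.398 to 0.737) of broad-interval peaks were on X, with an odds ratio of 4.72 (2.53 to 8.48) and a two-sided Fisher's exact p of 1.39e-06 (2.08e-06 after adjustment). Against broad intervals of 2 to 5 kb alone, also tried only once the values were known, the ratio was 2.05 (1.03 to 3.99, Fisher's exact p = 0.0333). Of GATA4 peaks outside H3K27ac, 6.24% (5.28 to 7.35) were on X. The share on X was 1.87% (1.63 to 2.15) for all GATA4 peaks and 1.82% (1.71 to 1.95) for all narrow H3K27ac intervals. These shares lie within the interval for narrow-interval peaks, while the broad-interval share was below them. The odds ratio therefore does not show that narrow-interval peaks were more frequent on X than GATA4 peaks in general.

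Acetylation on X differed from the autosomes in the same comparison. There were 5.12 narrow H3K27ac intervals per Mb on X, against 14.5 on the lowest autosome, and 65.3% (62.6 to 67.8) of X intervals were narrower than 2000 bp, against 61.01% (60.7 to 61.4) on autosomes. Counted per narrow interval, X was not low: 20.3 of 1000 carried a narrow-interval peak, within the autosomal range of 9.57 on chromosome 11 to 21.01 on chromosome 2. The part of these differences in the share on X was not tested, and the sex of the pooled hearts is not given in the labels.

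**Figure D5:**
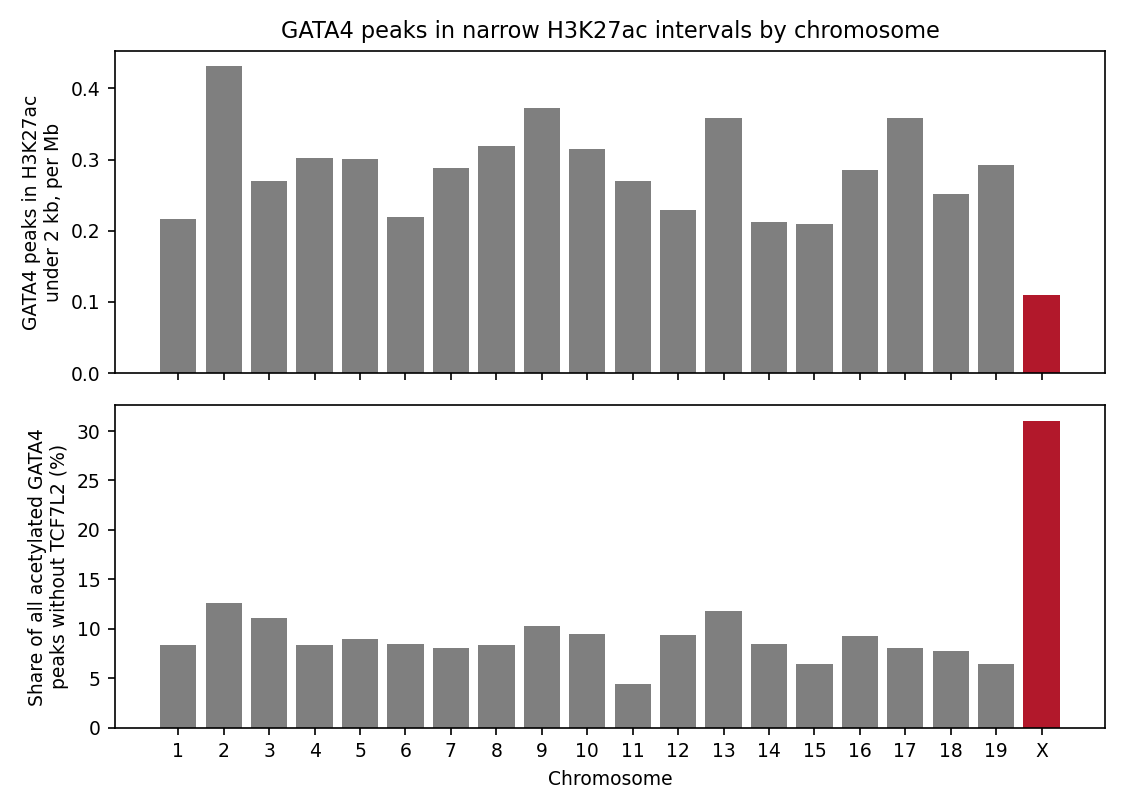
Narrow-interval GATA4 peaks per Mb of chromosome (top) and as a share of all acetylated GATA4 peaks without TCF7L2 (bottom), with X in red. X had the lowest density, 0.110 per Mb, and the highest share, 31.03%.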

How the data were processed

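For each of 3 antibodies the authors deposited 1 list of peak positions, with neither height nor score. The submitters' processing notes name MACS2 (2.1.1.20160309.0), Bowtie2 (2.2.6.2), deepTools and FastQC (0.10.0), and the build mm9. The peak threshold and the way in which 2 biological replicates became 1 list were not given in these sources. The input was not analysed here.

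Overlap meant 1 bp or more. Distances between GATA4 or TCF7L2 peaks are between midpoints, and gaps between H3K27ac intervals are between borders. Narrow-interval and broad-interval GATA4 peaks were compared on 3 measures with Fisher's exact test, conditional odds ratios with 95% intervals, and Benjamini-Hochberg adjustment. The 95% Wilson intervals of shares cover counting error only. The assignment to sets and the width test were tried on simulated lists with 1 GATA4 peak per H3K27ac interval. The spacing and X tests were not tried in this way. The rule for the peaks, the measures and the regions named (the 10 widest, the 5 on the narrowest intervals, the 5 intervals with most peaks, the 5 most isolated, and 3 on each side of the limit) were chosen with earlier results of these data known. The gene and promoter tables at hand are for GRCm38.p6, so peaks were not assigned to genes, no sequence was read, and the planned tests of motifs and of transcription starts were not run. Software was scipy 1.17.1, statsmodels 0.14.6, pandas 2.3.3, numpy 2.4.6 and matplotlib 3.10.9 under Python 3.11.15.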

Additional observations from a re-analysis of the deposited data

How the results depend on the processing

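The 3 tests were run under 72 other settings, of which 11 were tried only once the values were known, and 70 kept their direction and their side of the threshold. Most of the 72 left out 1 chromosome at a time and so used nearly the same peaks, which makes this count a weak measure of stability. The exceptions concern a GATA4 neighbour within 10 kb: with peaks of the same H3K27ac interval left out the odds ratio reversed to 1.41, and with the background also limited to H3K27ac of 2 to 5 kb it was 0.753 and did not pass. No other setting left out neighbours of the same interval at that distance. Leaving out the same interval removes search room according to H3K27ac width, most of all in the widest intervals. Keeping it counts neighbours for which a wide interval has room, so neither way of counting is free of the width rule. Leaving out each chromosome in turn gave odds ratios of 0.714 to 0.778 for GATA4 width and 0.246 to 0.266 for a neighbour within 10 kb. The number of narrow-interval peaks was 229 with a limit of 1000 bp and 1371 with one of 3000 bp, by construction. It was 642 with 50% of the GATA4 peak covered and 631 with H3K27ac joined across 1 kb. No paired analysis was possible because each antibody has 1 list, and for the same reason no replicate could be left out. The other settings listed for motifs and transcription starts were not run.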

Other observations

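Narrow-interval GATA4 peaks were counted in windows of 1 Mb along the chromosomes. Of the windows that held any, 456 held 1 and 105 held 2, while 13 held 3, 2 held 4 and 1 held 5. No expected count was computed, so these values do not tell whether the peaks were spread out or clustered. The window count, and the windows named next, were chosen after the values were seen. The window with 5, chr2:51000001-52000000, held 0 broad-interval peaks, and 4 of its peaks shared the interval at chr2:51801821-51803515. The windows with 4 were chr13:67000001-68000000 and chr14:48000001-49000000, each with 4 broad-interval peaks as well.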
